A study of Mus musculus with 6 samples.

Results

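Genes of glycolysis and of the hypoxia response were followed in luminal mammary epithelial cells (MECs) with and without intact Runx1. The group has 39 genes, chosen by name: glucose transport, the enzymes from glucose to lactate, lactate export, the kinases that gate pyruvate entry and phosphofructokinase activity, the oxygen sensing machinery, and well known targets of hypoxia-inducible factor (HIF). Of the 39, 36 had a probe set of their own among the 18193 genes named on the array, and all 36 passed the intensity filter that left 12151 genes for testing. Gpi1 and Eno1 were not analysed here because no probe set carried their symbol, and the probe sets listed for Gapdh carried other symbols too, so Gapdh was followed only on its control probe sets.

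The cells were YFP+ luminal MECs sorted by FACS from adult virgin females of a mixed B6/129/FVB background. All animals carried MMTV-Cre, a Cre transgene under a viral promoter active in subsets of mammary epithelium, and R26Y, a reporter that makes Cre-exposed cells yellow fluorescent, and they differed in their Runx1 alleles, of which the L allele has an exon flanked by loxP sites. The 3 Runx1-null mice were MMTV-Cre;Runx1L/L;R26Y and the 3 Runx1-WT mice were MMTV-Cre;Runx1+/+;R26Y, with 1 array per mouse. RNA was amplified before hybridization, and the values are linear intensities after the authors' dChip normalization. YFP marks cells in which the reporter recombined, and loss of both Runx1 alleles in each such cell was not measured on these arrays. Runx1 itself has 6 probe sets, which differed by -0.19 to 0.26 on the log2 scale, and the brightest gave 4082, 3855 and 2015 in Runx1-WT mice 1 to 3 and 3473, 4820 and 2277 in Runx1-null mice 1 to 3 (log2 difference 0.09; exact permutation test, two-sided, p = 0.8). Whether these probe sets read the deleted exon is not given in the sources used here, and they therefore cannot serve as a check of it.

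Glycolysis splits glucose into pyruvate in the cytosol. Hexokinases trap glucose as a phosphate, phosphofructokinase commits it to the pathway, and lactate dehydrogenase can regenerate NAD by turning pyruvate into lactate. When oxygen is sufficient, EGLN prolyl hydroxylases mark HIF alpha subunits and the VHL ubiquitin ligase removes them. When oxygen falls, HIF accumulates, binds short response elements with the core ACGTG or GCGTG and raises transcription of most glycolytic genes, of VEGF and of its own brake EGLN3. The mammary epithelium has a high glucose demand for milk synthesis in lactation, and HIF1A is known to take part in its secretory differentiation.

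The promoters of the members carry the HIF core often. Bases immediately before the first transcription start that RefSeq lists for each gene (GRCm38.p6, window of 250 bases) held ACGTG or GCGTG on either strand in 29 of 37 members with a listed promoter (78.4%), against 38.6% of 27025 genes. The share was 76.0% among 25 glycolysis members and 83.3% among 12 hypoxia members. The RUNX core, TGTGGT or TGCGGT on either strand, was present in 6 of the 37 (16.2%) and in 18.7% of all genes. These are matches of letters with no correction for base composition and do not show binding. The 6 promoters below belong to the members with the smallest unadjusted p between genotypes and are shown so that the presence or absence of a HIF core can be read beside the expression values. Capitals mark every HIF core on either strand, and where CACGTG stands, a match on one strand overlaps a match on the other.
Pfkm (chr15:98092339-98092588, plus strand): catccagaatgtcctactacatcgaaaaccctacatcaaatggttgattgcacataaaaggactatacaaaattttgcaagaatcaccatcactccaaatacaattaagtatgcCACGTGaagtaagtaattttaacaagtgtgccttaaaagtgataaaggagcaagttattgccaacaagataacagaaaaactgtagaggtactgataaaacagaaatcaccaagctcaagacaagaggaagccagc
Vhl (chr6:113623744-113623993, plus strand): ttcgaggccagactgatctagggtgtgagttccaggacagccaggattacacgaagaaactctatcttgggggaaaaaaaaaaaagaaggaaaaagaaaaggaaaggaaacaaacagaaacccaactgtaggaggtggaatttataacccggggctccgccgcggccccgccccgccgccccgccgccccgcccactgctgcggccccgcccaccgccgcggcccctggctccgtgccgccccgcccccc
Egln3 (chr12:54203875-54204124, minus strand): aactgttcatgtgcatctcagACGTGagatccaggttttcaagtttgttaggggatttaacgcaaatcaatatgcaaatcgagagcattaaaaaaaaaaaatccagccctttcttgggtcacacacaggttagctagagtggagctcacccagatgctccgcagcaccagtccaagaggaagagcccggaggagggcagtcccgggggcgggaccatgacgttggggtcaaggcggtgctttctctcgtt
Pfkp (chr13:6648772-6649021, minus strand): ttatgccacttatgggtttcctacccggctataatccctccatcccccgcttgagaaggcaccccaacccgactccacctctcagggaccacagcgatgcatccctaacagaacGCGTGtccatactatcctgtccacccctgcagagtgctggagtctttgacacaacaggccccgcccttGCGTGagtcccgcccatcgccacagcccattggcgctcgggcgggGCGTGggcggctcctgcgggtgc
Pgk1 (chrX:106186850-106187099, plus strand): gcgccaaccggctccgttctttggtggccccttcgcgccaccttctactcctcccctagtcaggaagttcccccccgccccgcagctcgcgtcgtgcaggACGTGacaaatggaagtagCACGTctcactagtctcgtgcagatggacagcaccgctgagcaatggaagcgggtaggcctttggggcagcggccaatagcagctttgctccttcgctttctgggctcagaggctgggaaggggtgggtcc
Ldha (chr7:46845554-46845803, plus strand): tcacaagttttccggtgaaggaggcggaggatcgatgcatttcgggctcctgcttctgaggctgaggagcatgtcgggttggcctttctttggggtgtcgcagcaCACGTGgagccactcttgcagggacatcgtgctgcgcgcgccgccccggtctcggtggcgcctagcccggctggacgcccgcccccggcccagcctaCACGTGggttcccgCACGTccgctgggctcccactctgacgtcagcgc
Vhl had 0 matches, Egln3 had 1, Pfkp had 3 and Pgk1 had 2. Pfkm had 2, one on each strand of the same letters, and Ldha had 5, counting each strand. RefSeq lists 4 starts for Pfkm and 2 for Ldha, and the windows shown are those of the first listed start.

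Between genotypes, no member passed the test, while one phosphofructokinase subunit and one oxygen sensing component lay lower in every Runx1-null mouse. Limma called 0 of the 36 members at an adjusted p under 0.05, and every member had an adjusted p of 1.0. Across all genes tested it also called 0 (0%). At an unadjusted p under 0.05 it gave 1 member, Pfkm, against 1.93% of all genes tested (234 genes), and the methods' t-test likewise gave 1 member, with 335 genes. The genotypes did not overlap for 2 members, Pfkm and Vhl, both lower in Runx1-null mice, which is 2 of 36 against 5.56% of all genes in either direction and 3.47% lower. These member counts are near the shares for all genes. The median log2 difference (Runx1-null minus Runx1-WT) was 0.07 over the 36 members, 0.05 over the 22 glycolysis members and 0.15 over the 14 hypoxia members, against -0.02 over all genes tested. Without Runx1-null mouse 3 these medians were -0.04, -0.03 and -0.04. The precision is limited by the number of arrays. Each limma p-value sets a difference against the variation between these mice, moderated over all genes tested.

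**Figure D1:**
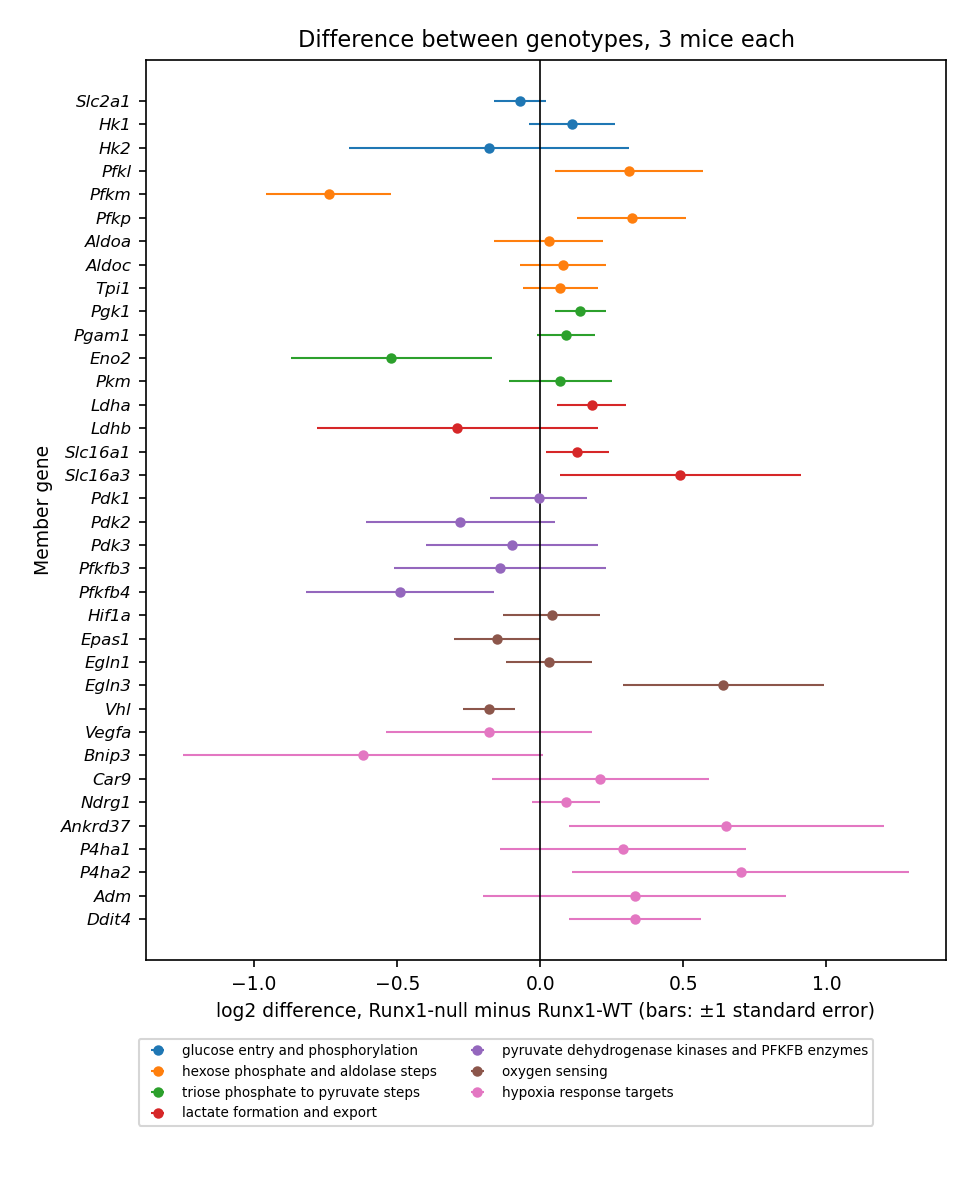
Log2 difference (Runx1-null minus Runx1-WT, x axis) of each of the 36 measured members (y axis), coloured by role, with bars of 1 standard error from limma. Differences run from -0.74 for Pfkm to 0.70 for P4ha2, and 22 of 36 points lie above 0.

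Glucose entry was nearly constant at the transporter and variable at one hexokinase. Slc2a1, the basal glucose transporter GLUT1, had intensities of 8715, 8876 and 7403 in the Runx1-WT mice against 7355, 8013 and 8477 in the Runx1-null mice. The highest mouse exceeded the lowest by only 1.21-fold, the genotypes overlapped, and the log2 difference was -0.07 (standard error 0.09). Hk1, the constitutive hexokinase, gave 2110, 2307 and 1917 in the Runx1-WT mice against 2101, 2138 and 2595 in the Runx1-null mice (log2 difference 0.11, standard error 0.15). Hk2, the hexokinase that insulin and hypoxia are known to induce, gave 4054, 4574 and 2366 in the Runx1-WT mice against 1505, 3546 and 5686 in the Runx1-null mice. Its lowest and highest values both came from Runx1-null mice, 3.78-fold apart, while the genotype means were 3665 ± 1155 (SD, n = 3) and 3579 ± 2091 (SD, n = 3).

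At the committed step, the muscle-type phosphofructokinase subunit was lower in all Runx1-null mice and the liver-type and platelet-type subunits were not. Pfkm gave 839, 686 and 647 in the Runx1-WT mice against 351, 435 and 527 in the Runx1-null mice. No Runx1-null mouse reached the lowest Runx1-WT mouse. The means were 724 ± 102 (SD, n = 3) and 438 ± 87.9 (SD, n = 3), and the log2 difference was -0.74 (standard error 0.22; limma, unadjusted p = 0.0138, adjusted p = 1.0). Leaving out each mouse in turn gave -0.88 to -0.59, and after scaling arrays to a common median it was -0.65 (unadjusted p = 0.073, limma), still without overlap. Pfkl gave 819, 785 and 1014 in the Runx1-WT mice against 941, 860 and 1520 in the Runx1-null mice, so the genotypes overlapped and Runx1-null mouse 3 stood highest. A dimmer probe set of Pfkl had the opposite sign, with a log2 difference of -0.48 against 0.31 for the brightest. Pfkp gave 1723, 1252 and 1356 in the Runx1-WT mice against 1837, 2046 and 1514 in the Runx1-null mice (log2 difference 0.32, standard error 0.19), and its 3 probe sets ran from -0.20 to 0.50. After median scaling the brightest did not overlap between genotypes either, with Runx1-null mice higher by 0.41 (standard error 0.20).

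Within each array, the log2 ratio of Pfkm to Pfkl was lower in every Runx1-null mouse, by 1.04 on average (standard error 0.26; two-sided exact permutation test, p = 0.1, which is the lower limit for 3 against 3 mice, and 0.933 after adjustment over 12 isoenzyme pairs). Relative to their mean over the 6 mice, the ratios were 0.82, 0.60 and 0.14 in the Runx1-WT mice against -0.63, -0.19 and -0.74 in the Runx1-null mice. The other 11 pairs overlapped between genotypes, among them Hk2 to Hk1, Ldhb to Ldha and P4ha2 to P4ha1. The next steps, Aldoa and Aldoc for aldolase and Tpi1 for triose phosphate isomerase, had log2 differences of 0.03 to 0.08. The 5 probe sets of Aldoa ran from -0.08 to 0.07.

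**Figure D2:**
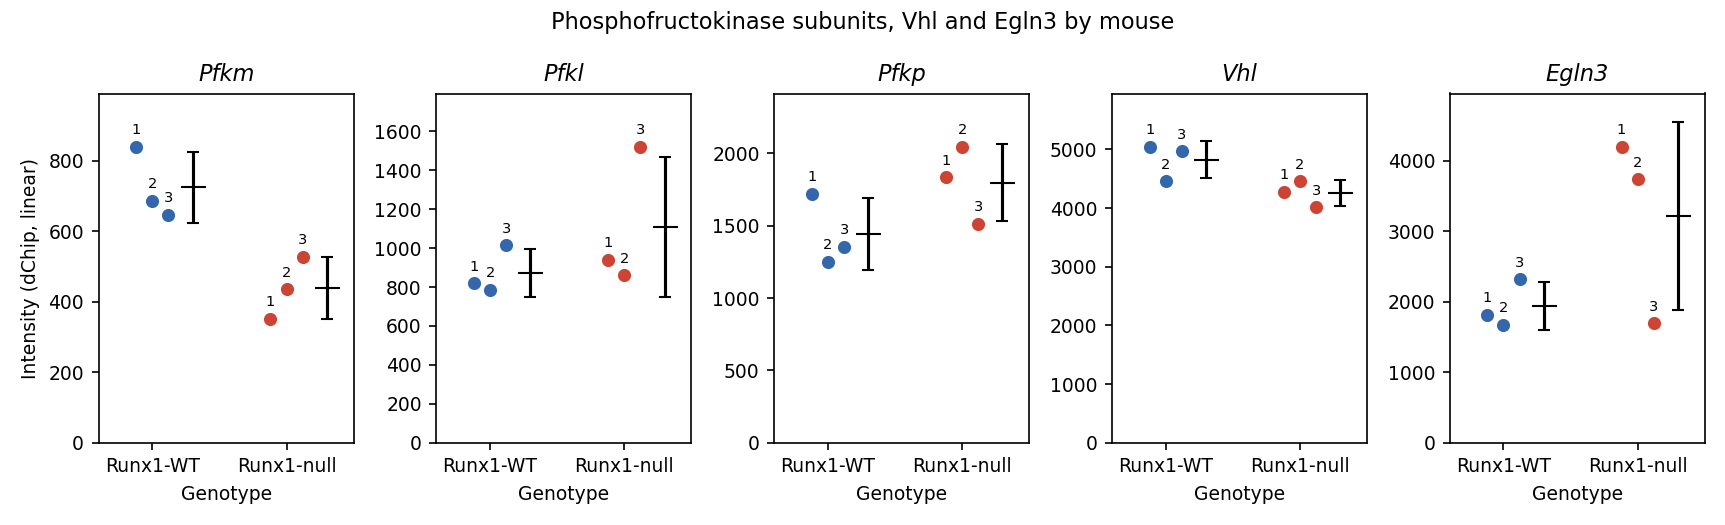
Linear dChip intensity (y axis, from 0) of Pfkm, Pfkl, Pfkp, Vhl and Egln3 in each mouse by genotype (x axis); points are mice with their numbers, and black bars are the mean and SD of 3 mice. The Runx1-null points of Pfkm (351 to 527) and Vhl (4016 to 4458) lie below all Runx1-WT points, while Runx1-null mouse 3 lies apart from the other 2 for Pfkl and Egln3.

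Of the steps from triose phosphate to pyruvate, Pgk1 and Pgam1 were among the least variable members and Eno2 was not. Pgk1, phosphoglycerate kinase, gave 7232, 6819 and 7386 in the Runx1-WT mice against 7842, 7055 and 8763 in the Runx1-null mice. The genotypes overlapped, with a log2 difference of 0.14 (standard error 0.09), its 3 probe sets all lay above 0, and the difference was 0.06 without Runx1-null mouse 3. Pgam1 and Pkm, the mutase and the pyruvate kinase that follow, differed by 0.09 (standard error 0.10) and 0.07 (standard error 0.18) on the log2 scale. Eno2, the neuronal-type enolase and a known HIF target, gave 1090, 1046 and 601 in the Runx1-WT mice against 401, 779 and 747 in the Runx1-null mice (log2 difference -0.52, standard error 0.35). Both Runx1-WT mice 1 and 2 exceeded all Runx1-null mice, but Runx1-WT mouse 3 did not, and the difference ran from -0.79 when Runx1-WT mouse 3 was left out to -0.21 when Runx1-null mouse 1 was left out. The control probe sets of Gapdh gave 9069, 8524 and 9017 in the Runx1-WT mice against 8915, 9117 and 9634 in the Runx1-null mice at the 3' end, a log2 difference of 0.06 (exact permutation test, two-sided, p = 0.4), and -0.03 at the 5' end (exact permutation test, p = 0.6).

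Of the lactate dehydrogenase subunits, Ldha was steady across mice and Ldhb was not. Ldha, the subunit that favours lactate formation and a HIF target, gave 7056, 6672 and 7185 in the Runx1-WT mice against 7052, 7326 and 9535 in the Runx1-null mice (log2 difference 0.18, standard error 0.12). Apart from Runx1-null mouse 3 all mice lay between 6672 and 7326, and without that mouse the difference was 0.04. Ldhb, the subunit that favours pyruvate, gave 1590, 716 and 3145 in the Runx1-WT mice against 1185, 1382 and 1194 in the Runx1-null mice. The Runx1-WT mice spanned 4.39-fold and the Runx1-null mice 1.17-fold, and all 4 probe sets of Ldhb had the same lowest mouse, Runx1-WT mouse 2, and the same highest, Runx1-WT mouse 3. Slc16a1, the monocarboxylate transporter MCT1, gave 3276, 2899 and 3397 in the Runx1-WT mice against 3647, 3310 and 3497 in the Runx1-null mice (log2 difference 0.13, standard error 0.11). Slc16a3, the hypoxia-induced lactate exporter MCT4, was dim, at 67.9 to 104 in Runx1-WT mice, 86.4 and 93.8 in Runx1-null mice 1 and 2 and 207 in Runx1-null mouse 3.

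The enzymes that gate the pathway had 5 of 5 log2 differences below 0, none past the test, with a median of -0.14, where 55.5% of all genes tested lay below 0. Without Runx1-null mouse 1, and likewise without Runx1-null mouse 3, Runx1-WT mouse 1 or Runx1-WT mouse 3, the count was 3 of 5, and other probe sets of Pdk1 and Pfkfb3 lay at up to 0.04 and 0.003. Pfkfb4, which makes the phosphofructokinase activator fructose 2,6-bisphosphate, gave 180, 245 and 128 in the Runx1-WT mice against 104, 124 and 157 in the Runx1-null mice (log2 difference -0.49, standard error 0.33). Runx1-null mouse 3 lay above Runx1-WT mouse 3, so the genotypes overlapped, and the difference was -0.26 without Runx1-WT mouse 2. Pfkfb3, the inducible enzyme of the same family, lay between 4016 and 6289 in the Runx1-WT mice and between 2782 and 7395 in the Runx1-null mice. Pdk2, a kinase that inactivates pyruvate dehydrogenase, gave 815, 657 and 680 in the Runx1-WT mice against 385, 580 and 920 in the Runx1-null mice (log2 difference -0.28, standard error 0.33), and the difference was 0.03 without Runx1-null mouse 1. Pdk1, the HIF-induced kinase of that family, differed by -0.0057 (standard error 0.17) on the log2 scale, and Pdk3 by -0.10 (standard error 0.30). The 4 probe sets of Pdk1 ran from -0.49 to 0.04.

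Among oxygen sensing genes, the HIF subunits and Egln1 did not separate the genotypes, Vhl was slightly lower in each Runx1-null mouse, and Egln3 was high in Runx1-null mice 1 and 2. Vhl gave 5044, 4461 and 4971 in the Runx1-WT mice against 4282, 4458 and 4016 in the Runx1-null mice. The groups did not overlap, though Runx1-WT mouse 2 and Runx1-null mouse 2 differed by little, and the log2 difference was -0.18 (standard error 0.09; limma, unadjusted p = 0.0837, adjusted p = 1.0). After median scaling it was -0.09 and the genotypes overlapped. Egln3, the hydroxylase that HIF itself induces, gave 1818, 1676 and 2318 in the Runx1-WT mice against 4196, 3739 and 1696 in the Runx1-null mice. Runx1-null mouse 3 was within the Runx1-WT range, and the log2 difference of 0.64 (standard error 0.35) became 1.05 without it and 0.39 without Runx1-null mouse 1. After median scaling it was 0.73 (standard error 0.28; limma, unadjusted p = 0.0289), with the groups still overlapping. The other probe set of Egln3 also placed Runx1-null mice 1 and 2 highest and Runx1-WT mouse 2 lowest, at 1066, 918 and 2498 in the Runx1-WT mice against 4380, 3359 and 1159 in the Runx1-null mice. Hif1a gave 7227, 7775 and 5741 in the Runx1-WT mice against 5681, 7123 and 8597 in the Runx1-null mice (log2 difference 0.04, standard error 0.17). Its 4 probe sets ran from -0.13 to 0.27, and the probe set at 0.27 spanned 1070 to 6327 in the Runx1-null mice. Epas1, which encodes HIF2 alpha, had a log2 difference of -0.15 (standard error 0.15). For Egln1, the main oxygen sensor, it was 0.03 (standard error 0.15).

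Of the 9 HIF target genes, 7 had log2 differences above 0 and 2 below, with a median of 0.29, and 0 passed the test; 44.5% of all genes tested lay above 0. The count rested on Runx1-null mouse 3: without it 4 lay above 0 and 5 below, with a median of -0.04. P4ha2, a collagen prolyl hydroxylase subunit, gave 219, 370 and 448 in the Runx1-WT mice against 489, 251 and 1261 in the Runx1-null mice (log2 difference 0.70, standard error 0.59). Without Runx1-null mouse 3 the difference was 0.08. Ddit4, the stress-induced inhibitor of mTORC1, gave 3246, 3761 and 5797 in the Runx1-WT mice against 5698, 4222 and 5799 in the Runx1-null mice (log2 difference 0.33, standard error 0.23). It was low in Runx1-WT mice 1 and 2 and intermediate in Runx1-null mouse 2, and leaving out each mouse moved the difference between 0.15, with Runx1-WT mouse 1 left out, and 0.57, with Runx1-WT mouse 3 left out.

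The larger variation lay between mice of one genotype. Runx1-null mouse 3 had the highest value of the 6 mice for 22 of 36 members (61.1%), against 17.4% of all genes tested, and for 8 of the 9 HIF targets, the exception being Car9, though for Ddit4 by only 5799 against 5797 in Runx1-WT mouse 3. After scaling arrays to a common median, it was highest for 26 members (72.2%), against 53.3% of all genes. Among 29 other hypoxia response genes it was highest for 11 (37.9%) as deposited and 18 (62.1%) after median scaling, and among 20 other glycolysis genes for 7 (35.0%) and 12, with the same 17.4% and 53.3% over all genes. These shares over all genes are not matched for intensity. The brightest luminal markers, Krt8, Krt18, Krt19, Epcam and Cd24a, were also highest in Runx1-null mouse 3 as deposited. Krt8 gave 12535 there against 10459 to 11500 in the other mice. The dimmer luminal markers were highest in other mice. The part of intensity in this pattern was not tested. The mean of the 9 HIF targets, each centred on its mean over the 6 mice, was 0.76 on the log2 scale in Runx1-null mouse 3 and between -0.25 and -0.0031 in the other 5. This pattern was noticed in these data and is given as a description. The animal numbers in the sample titles fall into a lower and an upper range. Runx1-null mouse 3 and Runx1-WT mouse 3 are the only mice in the upper range, and the part of this range in the pattern was not tested.

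Over all members, Runx1-null mice 3 and 1 had the highest and lowest mean, at 0.32 and -0.21 on the centred log2 scale. For 28 of 36 members (77.8%) mouse 3 lay above mouse 1, against 48.6% of all genes, and 10 members (27.8%, against 6.94% of all genes) exceeded it by more than 1 on the log2 scale. The genes of this and the next paragraph were chosen after their values were seen, as were Hk2, Pfkl, Ldhb, Slc16a3 and Hif1a above for values in every mouse. Bnip3, a HIF target that promotes mitophagy, gave 2244, 2466 and 1227 in the Runx1-WT mice against 533, 1098 and 3192 in the Runx1-null mice, so mouse 3 exceeded mouse 1 by 2.58 on the log2 scale. Adm, which encodes the vasodilator adrenomedullin, gave 1344, 1734 and 558 in the Runx1-WT mice against 771, 1460 and 2273 in the Runx1-null mice, and Vegfa, the angiogenic growth factor, gave 1495, 1693 and 1434 and then 869, 1194 and 2406. Each of these 3 genes had its highest value in Runx1-null mouse 3 and its second highest in Runx1-WT mouse 2 on the brightest probe set. The other probe set of Vegfa did not follow this order, at 498, 416 and 632 in the Runx1-WT mice against 472, 496 and 417 in the Runx1-null mice. P4ha1, at 300, 419 and 296 in the Runx1-WT mice against 301, 282 and 794 in the Runx1-null mice, and Ankrd37, at 45.3, 44.7 and 105 and then 77.6, 59.4 and 178, were also highest in that mouse.

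Egln3 and Car9 ran the other way. Car9, the HIF-induced carbonic anhydrase of the cell surface, gave 226, 199 and 360 in the Runx1-WT mice against 467, 263 and 206 in the Runx1-null mice. These 2 members lay more than 1 lower in Runx1-null mouse 3 than in mouse 1 on the log2 scale, at -1.31 for Egln3 and -1.18 for Car9, so not every HIF-induced member followed the same order of mice.

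**Figure D3:**
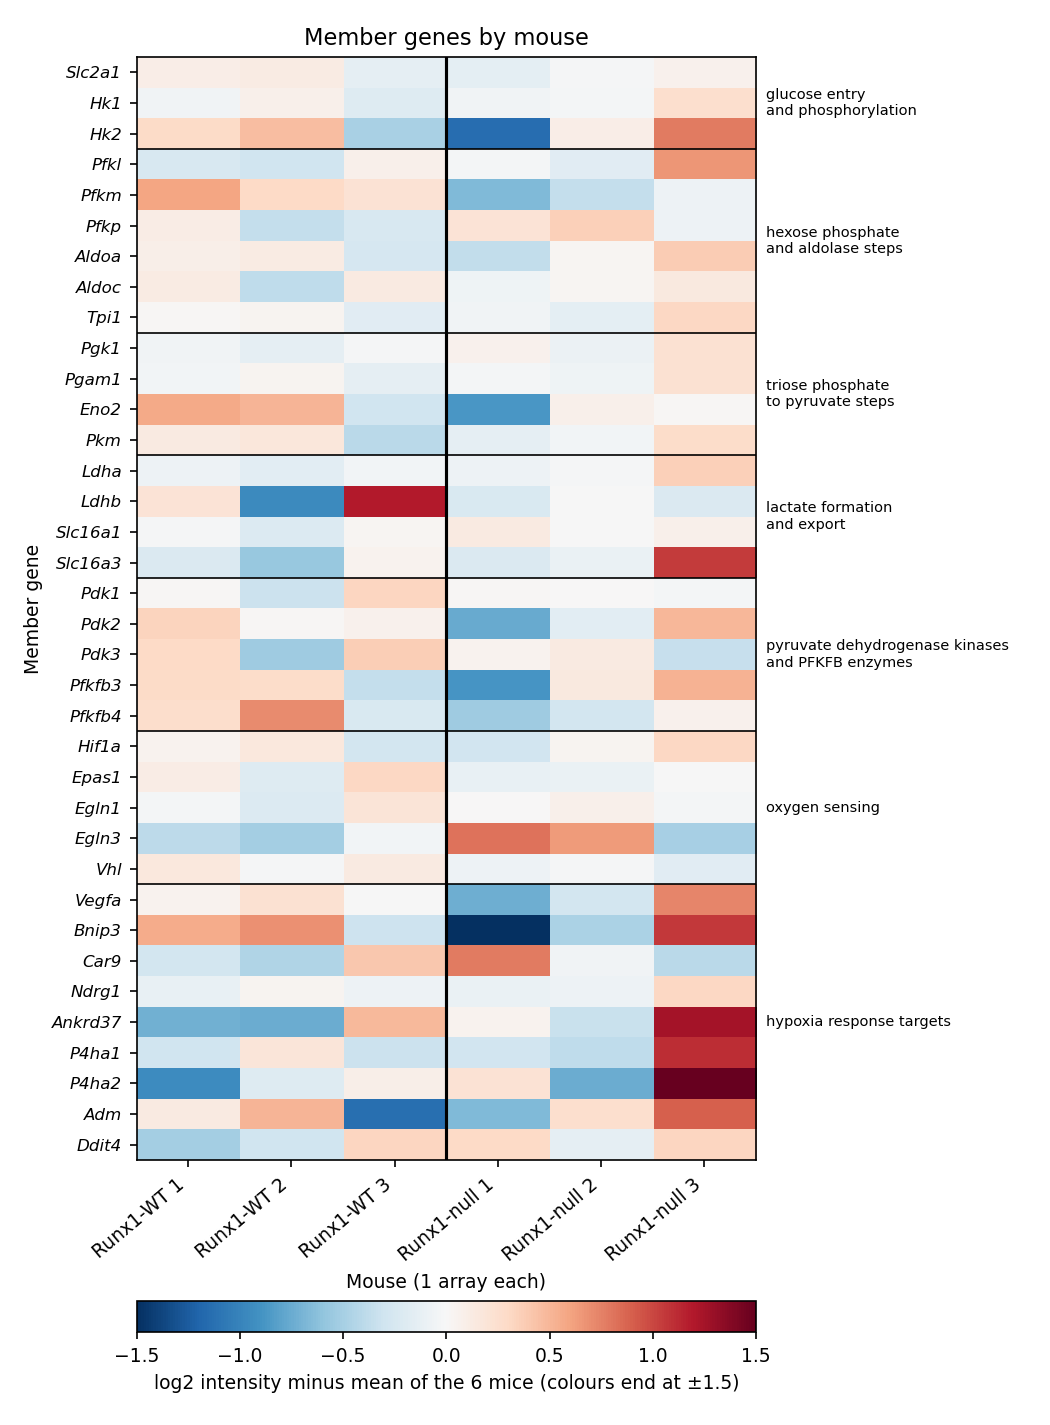
Log2 intensity of the 36 measured members (rows, grouped by role) in each of the 6 mice (columns), minus the mean of the 6 mice; red is higher, blue is lower, and colours end at ±1.5. Runx1-null mouse 3 has the highest value in 22 rows and Runx1-WT mouse 2 the lowest in 15.

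Several members had the same 2 mice lowest, an order noticed in these data and given as a description. Runx1-WT mouse 3 and Runx1-null mouse 1 were the lowest pair of mice for 9 of 36 members (25.0%), namely Slc2a1, Hk1, Hk2, Aldoa, Eno2, Pkm, Pfkfb3, Hif1a and Adm, against 14.3% of all genes tested. After median scaling the count fell to 5 of 36, against 9.83% of all genes, so the count depended on the scaling. Markers of hormone-sensing luminal cells, a list added after its values were seen, showed a similar order in 3 of 5 measured genes. Pgr, the progesterone receptor, gave 5145, 5978 and 2865 in the Runx1-WT mice against 2906, 5641 and 7128 in the Runx1-null mice, and Prom1, the surface antigen CD133, gave 7311, 6241 and 2780 and then 2067, 5762 and 7227. Both, and Esr1, were lowest in the same pair of mice. The other 2 measured markers were not: Cited1 was lowest in Runx1-null mouse 3, at 1372 (log2 difference -1.17, standard error 0.40; limma, unadjusted p = 0.0227, adjusted p = 1.0), and Wnt4 gave 1592, 1526 and 1498 in the Runx1-WT mice against 552, 717 and 1336 in the Runx1-null mice, without overlap (log2 difference -0.93, standard error 0.32; limma, unadjusted p = 0.024). The summed intensity of the 5 measured markers was 14558 to 26706 in the Runx1-WT mice against 11531 to 22462 in the Runx1-null mice. Cycling cell markers, a list also added after its values were seen, had their highest value in Runx1-null mouse 1 and their lowest in Runx1-null mouse 3 for 3 of 3 measured genes. Top2a gave 3153, 1146 and 3739 in the Runx1-WT mice against 4285, 949 and 417 in the Runx1-null mice. All 4 luminal progenitor markers, added in the same way, lay above 0 (median log2 difference 0.24), and none passed the test. Of all genes tested, 44.5% lay above 0. Aldh1a3, with the smallest difference of the 4, did not overlap between genotypes (log2 difference 0.15, standard error 0.08), and the others overlapped. Of all genes tested, 2.08% did not overlap and were higher in the Runx1-null mice. The part of these cell populations in the values of the members was not tested, and in bulk RNA fewer cells of a type and less RNA per cell cannot be told apart.

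**Figure D4:**
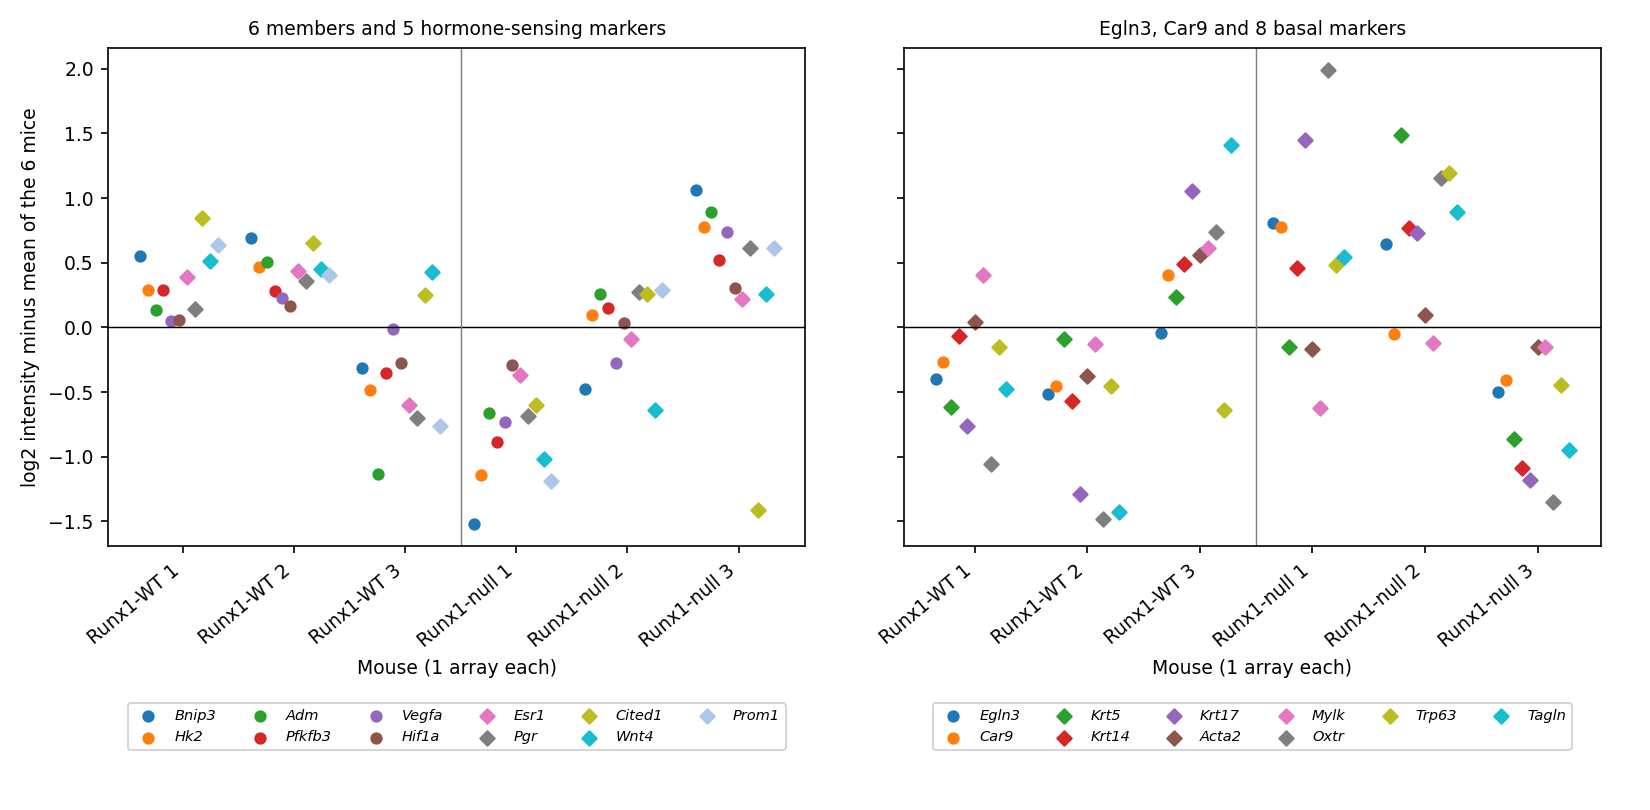
Log2 intensity minus the mean of the 6 mice (y axis) in each mouse (x axis); circles are members and diamonds are cell type markers. Left, 6 members that were highest in Runx1-null mouse 3 with the 5 measured hormone-sensing markers; right, Egln3 and Car9, which were highest in Runx1-null mouse 1, with the 8 basal markers that passed the filter.

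Other cell types and RNA quality were measured beside these results. Of 12 luminal markers, 11 were measured and all 11 passed the filter. Their sum was 80484 to 87695 in the Runx1-WT mice against 81145 to 88107 in the Runx1-null mice. The brightest markers make up most of this sum, and it does not measure the purity of the sort. Basal and myoepithelial markers (10 of 10 measured) summed to 5421 to 13899 in the Runx1-WT mice against 5410 to 15047 in the Runx1-null mice, lowest in Runx1-WT mouse 2 and Runx1-null mouse 3. Of the 10, 2 (Oxtr and Krt17) were highest in Runx1-null mouse 1, as were Egln3 and Car9, 3 in Runx1-null mouse 2 and 5 in Runx1-WT mouse 3. Stromal markers (10 of 10 measured) summed to 12873 to 15275 in the Runx1-WT mice against 5252 to 13327 in the Runx1-null mice, with 5252 in Runx1-null mouse 3, in which the HIF targets were highest. Endothelial markers (8 of 8) summed to 1535 to 1822 and 916 to 1388, leukocyte markers (9 of 10) to 1157 to 3739 and 962 to 1560, adipocyte markers (5 of 6) to 3070 to 3488 and 2056 to 3380, and erythroid markers (2 of 4) to 87.2 to 129 and 66.2 to 80.9, with Hba-a1 at or below the floor on all arrays. The leukocyte sum of 3739 was that of Runx1-WT mouse 3, against 1157 and 1191 in Runx1-WT mice 1 and 2. The endothelial and erythroid sums did not overlap between genotypes. All 10 stromal and all 7 tested endothelial markers had log2 differences below 0, with medians of -0.51 and -0.48. Of 8 tested basal markers, 6 lay above 0, and 55.5% of all genes tested lay below 0. Among these lists, Foxa1 of the luminal markers (log2 difference -0.31, standard error 0.13) had an unadjusted p under 0.05 with overlap, and Col6a1 (-0.45), Kdr (-0.70), Tek (-0.73) and Alas2 (-0.79) of the stromal, endothelial and erythroid markers were lower without overlap. Runx1-null mouse 3 also had the lowest array median, 106.3 against 129.1 to 163.4, the most values below the floor, 22.3% against 18.8% to 20.6%, and the largest excess of 3' over 5' control signal on the log2 scale, 0.61 for Gapdh against 0.46 to 0.55 and 0.74 for beta-actin against 0.44 to 0.52. For Gapdh this excess was also higher in each Runx1-null mouse than in any Runx1-WT mouse, with means of 0.54 and 0.46 (two-sided exact permutation test, p = 0.1). Mouse 2 of each genotype differed by little, at 0.47 in both. For beta-actin the genotypes overlapped, with means of 0.56 in Runx1-null and 0.51 in Runx1-WT mice (two-sided exact permutation test, p = 0.8). The part of these differences in the values of the members was not tested.

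The wider pathway held few genes that set the genotypes apart. Of 81 genes tested in 6 further lists of metabolism and hypoxia, 41 lay above 0 and 40 below, and 0 passed the test. Of the 81, 3 had an unadjusted p under 0.05 (limma), against 1.93% of all genes tested. The genotypes did not overlap for 1 gene higher and 2 lower in Runx1-null mice, against 2.08% and 3.47% of all genes tested. Among 20 other glycolysis genes, Galm, the mutarotase that interconverts the anomers of glucose and galactose, gave 1594, 1699 and 1085 in the Runx1-WT mice against 685, 676 and 914 in the Runx1-null mice (log2 difference -0.93, standard error 0.24; limma, unadjusted p = 0.00596). Like Pfkm, it was lower in every Runx1-null mouse. Among 7 glycogen genes, Pygb, the brain-type glycogen phosphorylase, did not overlap between genotypes, but the step was small, at 1458 to 1498 in the Runx1-WT mice against 1338 to 1360 in the Runx1-null mice. The 10 genes of pyruvate entry, the 6 of the pentose phosphate pathway and the 10 further oxygen sensing genes had medians of 0.007, -0.0039 and 0.0058, and the genotypes overlapped for each of them.

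Among the 29 other hypoxia response genes, 17 were above 0 and 12 below, with a median of 0.06. Lox, the collagen cross-linking oxidase, gave 278, 237 and 193 in the Runx1-WT mice against 104, 203 and 67.2 in the Runx1-null mice (log2 difference -1.05, standard error 0.43; limma, unadjusted p = 0.0445). It was lowest in Runx1-null mouse 3, as were all 10 stromal markers. Mif, a cytokine, gave 4149, 4197 and 5119 in the Runx1-WT mice against 5529, 5072 and 5590 in the Runx1-null mice (log2 difference 0.27, standard error 0.11; limma, unadjusted p = 0.0384). Kdm4b, a histone demethylase, was at 397 to 461 in the Runx1-WT mice against 477 to 501 in the Runx1-null mice without overlap (2.08% of all genes tested did not overlap and were higher). MYC and its partners, which also act on glycolytic genes, had 3 genes above 0 and 5 below among 8 tested, with a median of -0.02, and Myc itself had a log2 difference of -0.07 (standard error 0.19).

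By its median, the spread among replicates was close to that of all genes tested, which are not matched for intensity. Large gaps within the Runx1-null mice were more frequent in one direction. Mouse 3 exceeded mouse 1 by more than 1 on the log2 scale for 10 members (27.8%), against 6.94% of all genes. It lay more than 1 lower for 2 members, against 8.45% of all genes. The median SD of log2 values over the members was 0.25 for the Runx1-WT and 0.28 for the Runx1-null mice, where all genes tested had 0.24 and 0.24. It differed between genes: Pgk1, Pgam1, Slc16a1, Vhl and Slc2a1 varied by at most 1.29-fold over all 6 mice, whereas Bnip3 and P4ha2 varied by 5.99-fold and 5.76-fold, Ldhb by 4.39-fold, Adm by 4.08-fold and Ankrd37 by 3.98-fold. For 29 of 36 members the difference between Runx1-null mice 3 and 1 was larger than the difference between genotypes, as it was for 78.6% of all genes.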

How the data were processed

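RNA of YFP+ luminal MECs from 3 Runx1-WT and 3 Runx1-null mice was measured on Affymetrix Mouse Genome 430 2.0 arrays. The deposited table holds linear intensities that the authors normalized across arrays with dChip, whose version is not given in the sources used here. Of 45101 probe sets, 34958 carried a single symbol and were used; 932 with several symbols and 9211 without one were left out, apart from controls. A floor at the 20th percentile of all values (19.335) was applied before taking log2. The brightest probe set stood for a gene, and genes with a mean intensity of at least 73.5 (40th percentile) entered limma 3.58.1 in R 4.3.3 (lmFit, eBayes with trend, Benjamini-Hochberg adjustment over 12151 genes). For isoenzyme ratios and controls, two-sided exact permutation tests were used (smallest possible p, 0.1). The study's methods describe littermates, and litters are not in the fit.

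The members and lists were chosen with earlier results of these data known. Values in every mouse are given for members that did not overlap, those at an unadjusted p under 0.05 and the 2 of smallest p in each role, and members added after their values were seen are named as such. Of other lists, genes that did not overlap or had an unadjusted p under 0.05 are named. Promoter sequences are from RefSeq (GRCm38.p6), and 2 members had none listed. The code was tested on simulated data. Alternatives were other filters, normalizations, a pseudocount of 5.04, the mean of the probe sets, each mouse left out, the animal number range (4 mice in the lower, 2 in the upper) as a block or taken singly, eBayes without trend and the methods' t-test. The upper range holds Runx1-WT mouse 3 and Runx1-null mouse 3, so the lower range is the fit without both of them.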

Additional observations from a re-analysis of the deposited data

How the results depend on the processing

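Limma called 0 genes and 0 members at an adjusted p under 0.05 under every alternative with a test, including a block for the animal number range. Genes with an unadjusted p under 0.05 numbered 234 (1 member, Pfkm) with all mice, 535 (1 member) without a filter, 123 (1 member, Egln3) after median scaling, and 1866 (9 members) in the lower animal number range (4 mice). Leaving out Runx1-WT mouse 1 gave 78 (0 members), Runx1-WT mouse 3 gave 818 (2 members) and Runx1-null mouse 3 gave 579 (4 members). Members that did not overlap numbered 2 with all mice, where 5.56% of all genes tested did not overlap, and 4 after quantile normalization. They numbered 23 in the lower range, and 3 to 10 leaving out 1 mouse each, highest when Runx1-WT mouse 3 was left out. Fewer mice overlap less often by construction. No share over all genes is set beside these alternatives, so the counts cannot show whether the members separated more than other genes. Isoenzyme pairs without overlap rose from 1 to 6 in the lower range and were 1 to 2 leaving out each mouse. The member median, 0.07 with all mice, was 0.38 in the upper range (1 mouse each, no test), and -0.04 to 0.14 leaving out each mouse. The glycolysis median was 0.34 in the upper range and -0.03 to 0.13 leaving out each mouse. The hypoxia median, 0.15, was 0.49 in the upper range, -0.06 in the lower and -0.04 to 0.22 leaving out each mouse, lowest without Runx1-null mouse 3.

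Of 237 alternative values for the 14 members named by rule, 229 kept their sign, as did 326 of 371 for the other 22 members, of which 18 turned at least once. The 14 were named largely for a small p. Some alternatives, such as eBayes without trend, the t-test and the block, leave a difference unchanged by construction. These counts therefore do not compare how stable the named and the other members were. In the upper range the sign turned for Egln3 (-0.45), Pfkfb4 (0.30), Eno2 (0.31), Pdk2 (0.44) and Slc2a1 (0.20). Slc2a1 was 0.03 after median scaling, Pdk2 -0.60 to 0.03 leaving out each mouse, turning without Runx1-null mouse 1, and Hk1 -0.06 in the lower range. The cause was not tested. With only Runx1-null mouse 2 against the Runx1-WT mice, an alternative chosen after seeing the data, the member median was -0.0075. No paired analysis was possible because the labels give the mice no shared replicate numbers. Arrays give no depth, and dim members such as Slc16a3 and Ankrd37 lie near the filter.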
